A study of Mus musculus with 2 samples.

Results

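The genes described here encode the main phase II conjugation enzymes of the mouse: the glutathione S-transferases (GST), the UDP-glycosyltransferases (UGT) and the sulfotransferases (SULT). They were chosen by symbol, as protein-coding genes whose names begin with Gsta, Gstk, Gstm, Gsto, Gstp, Gstt, Mgst, Ugt or Sult followed by a number. The rule found 67 genes in the annotation, and 66 of them could be matched to the 21474 protein-coding genes and 43346 mouse gene identifiers of the deposited tables. Ugt2a1 was not analysed here as a gene. A transcript model of 2570 bases that carries its name stands under Ugt2a2 in the deposited tables and had no reads. A further 7 pseudogenes with such symbols were left out.

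The samples form 1 group, liver from healthy B6NCrl mouse embryos of both sexes at embryonic day 12.5, and 2 total RNA libraries were sequenced. Replicate 1 was made from pooled livers of 120 embryos and replicate 2 from another pool of 88 embryos. Each library started from 10 ng of RNA and they held 37.6 M and 34.7 M expected counts, which are estimated reads per gene. Where a pair of values is given for a gene, they are those of replicate 1 and replicate 2. With 1 group there is no comparison between conditions and no p-value, and pooled livers do not show how single embryos vary.

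Phase II enzymes attach a polar group to drugs, hormones, bile pigments and reactive by-products of metabolism so that these can be excreted. GST enzymes use glutathione, most UGT enzymes use UDP-glucuronic acid, and SULT enzymes use the sulfate donor PAPS. The adult liver is a major site of all of these reactions, while the fetal liver at this stage is mainly a blood-forming organ around a growing population of hepatoblasts, the precursors of hepatocytes and bile duct cells.

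The labelled tissue was checked against markers. All 9 hepatoblast markers and all 8 erythroid markers reached 1 TPM (a level scaled by transcript length and library depth) in both libraries. Markers of macrophages (6 of 6), megakaryocytes (5 of 5), granulocytes (4 of 4), endothelium (5 of 5) and mesenchyme (6 of 6) did so too, so the values below are those of mixed tissue. In such bulk RNA, fewer cells of a type and less RNA per cell cannot be told apart. Of 5 markers of gut, pancreas and lung, 1 (Barx1) reached 1 TPM in both libraries.

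GST transcripts made up nearly all of the conjugation enzyme RNA in these livers. The 66 genes summed to 1568 TPM (replicate 1) and 1494 TPM (replicate 2), which is 0.157% and 0.149% of all TPM. The 24 GST genes held 97.2% ± 0.125 of this sum (SD, n = 2), the 21 UGT genes held 2.37% ± 0.0968 and the 21 SULT genes held 0.426% ± 0.0285. Gstp1 alone held 36.2% ± 0.784 of it, and Gstp1, Mgst3, Gstm1, Gstm5 and Gsto1 together held 83.7% ± 0.000631. The sum was thus carried by a handful of GST genes in both pools.

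A gene is called detected here at 1 TPM or more in both libraries. By this rule 26 of the 66 genes (39.4%) were detected, against 54.5% of all protein-coding genes. They comprised 20 of 24 GST, 4 of 21 UGT and 2 of 21 SULT genes. No read was assigned in either library to 17 of the 66 genes, while 21% of protein-coding genes had none. The median level was 0.31 TPM in replicate 1 and 0.255 TPM in replicate 2 for the 66 genes, and 2.00 and 2.03 TPM for all protein-coding genes. The families therefore lay on both sides of the whole, with a median of 10.4 and 10.2 TPM for GST, 0.04 and 0.03 TPM for UGT, and 0.02 and 0.05 TPM for SULT genes.

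**Figure D1:**
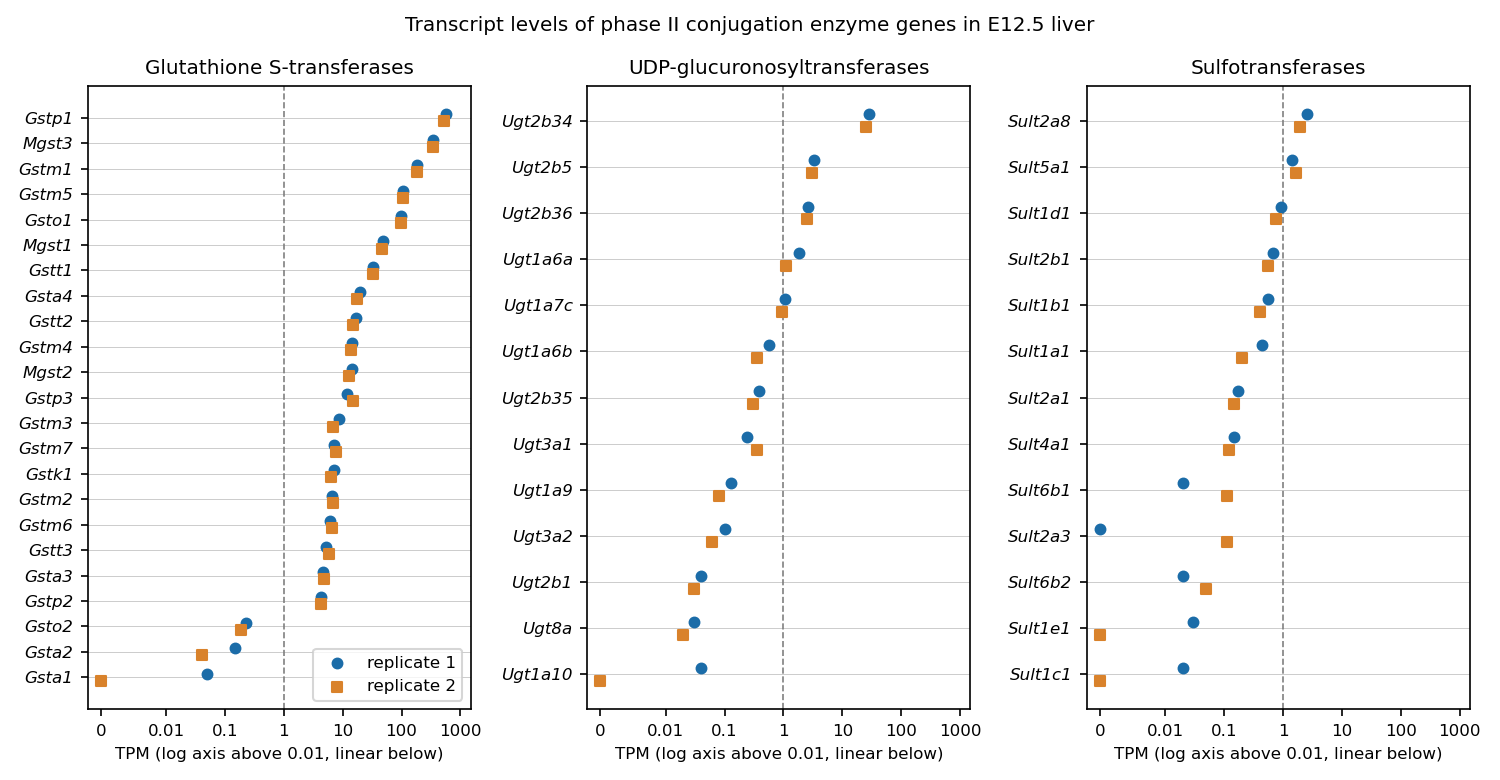
TPM of each gene with a read in either library, by family, on an axis that is logarithmic above 0.01 and linear below it. Circles are replicate 1, squares are replicate 2, and the dashed line is 1 TPM. The GST panel reaches 576 TPM at Gstp1, the UGT panel 27.9 TPM at Ugt2b34 and the SULT panel 2.53 TPM at Sult2a8.

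The pi class led the whole set. Gstp1 (ENSMUSG00000060803.5, chromosome 19, 4035407 to 4037985 of mm10, minus strand) encodes a cytosolic pi-class enzyme whose rat counterpart is a classical marker of preneoplastic liver lesions. Its level was 576 TPM (replicate 1) and 533 TPM (replicate 2), from 11937 and 10214 expected counts, and ranked 168 among protein-coding genes by mean TPM. Its neighbours on the same strand were far lower, with 4.27 and 4.26 TPM for Gstp2 and 12.0 and 14.8 TPM for Gstp3. The level of Gstp1 was 130 ± 7.01 times that of Gstp2 and 42.0 ± 8.54 times that of Gstp3 (SD, n = 2).

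Gstp1 and Gstp2 are nearly identical in sequence, which bears on how their reads were divided. Their coding sequences differ at 12 of 630 bases (98.1% identity), and 6 of these differences fall in the first 60 coding bases. Those bases are shown here because a read can be told apart only where it covers a difference. Capitals mark the bases that differ:
Gstp1: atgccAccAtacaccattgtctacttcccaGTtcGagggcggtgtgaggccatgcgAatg
Gstp2: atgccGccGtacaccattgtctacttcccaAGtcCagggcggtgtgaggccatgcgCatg
Of the 100-base windows along its GENCODE M21 transcript models, 74.9% occur in no other gene for Gstp1 and 53.1% for Gstp2. The deposited levels rest on GENCODE M4, with 1 Gstp1 model of 757 bases. The M21 models of Gstp1 gave 1937 windows, so the unique share of the quantified model can differ. Windows shared with Gstp1 made up 41.6% of those of Gstp2. The deposited posterior standard deviation of the expected count, a measure of how uncertain the division of shared reads was, came to 13.0% and 13.7% of the count for Gstp2 and to 0.10% and 0.12% for Gstp1. The low value of Gstp2 (90.1 and 83.3 expected counts) is therefore uncertain. Both genes together had 581 and 537 TPM, of which Gstp2 is a small part. Gstp-ps, which is not in the set, shared 23.3% of the Gstp2 windows and 10.8% of the Gstp1 windows.

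The stretches around the start sites of these neighbouring genes are shown because their levels differ so widely. They are RefSeq windows of GRCm38.p6, which is mm10, from 250 bases before to 50 bases after the annotated start on the minus strand: chr19:4037863-4038162 for Gstp1 and chr19:4042172-4042471 for Gstp2. Capitals mark matches to CAAAGT, a motif of the hepatocyte factor HNF4, and to GCGTG, the core of the xenobiotic response element:
Gstp1 promoter: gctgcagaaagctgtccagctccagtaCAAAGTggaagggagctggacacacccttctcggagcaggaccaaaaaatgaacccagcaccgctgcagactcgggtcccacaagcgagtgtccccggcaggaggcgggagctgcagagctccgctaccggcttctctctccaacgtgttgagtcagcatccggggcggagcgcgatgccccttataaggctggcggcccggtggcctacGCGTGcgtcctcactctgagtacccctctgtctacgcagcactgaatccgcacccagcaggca
Gstp2 promoter: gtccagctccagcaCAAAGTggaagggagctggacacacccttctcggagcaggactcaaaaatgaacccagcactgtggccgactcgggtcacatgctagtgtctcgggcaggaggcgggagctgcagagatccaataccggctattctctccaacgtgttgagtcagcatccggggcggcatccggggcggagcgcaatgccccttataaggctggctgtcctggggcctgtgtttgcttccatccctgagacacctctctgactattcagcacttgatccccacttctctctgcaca
The Gstp1 window held 20 CpG dinucleotides at 62.7% GC and the Gstp2 window held 12 at 58.3% GC. CAAAGT was found in both windows, and GCGTG was found in the Gstp1 window and not in that of Gstp2. The window of Gstp3 (12.0 and 14.8 TPM), not shown, held GCGTG as well, with 5 CpG at 53.7% GC. Such matches describe letters and not binding.

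All 7 mu-class genes were detected, and they summed to 335 and 327 TPM. Gstm1 (ENSMUSG00000058135.8, chromosome 3, 108012255 to 108017973, minus strand), a major mu-class enzyme of adult mouse liver, had 184 and 180 TPM. Gstm5 (chromosome 3, 107895821 to 107898686, plus strand) followed with 107.6 and 104.7 TPM. The ratio of Gstm1 to Gstm5 was 1.72 ± 0.00643. The remaining mu-class genes were lower. Gstm4 had 14.4 and 14.0 TPM, Gstm3 had 8.72 and 6.91, Gstm7 had 7.08 and 7.69, Gstm2 had 6.58 and 6.76, and Gstm6 had 6.17 and 6.55. The ranges of Gstm3 and Gstm7 overlapped between the libraries, so their order is not resolved. The cluster spans 149 kb, and its highest genes, Gstm5 and Gstm1, stand apart with 4 lower genes between them. Gstm5 overlaps 4933431E20Rik on the opposite strand, which had 3.25 and 4.45 TPM. The labels do not state strandedness, so reads of such overlapping genes cannot be told apart with certainty.

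Theta-class genes lie together on chromosome 10 over 63.3 kb. Gstt1, which acts on small halogenated compounds, had 33.4 TPM in both libraries (971 and 902 counts). Gstt2 had 16.8 and 15.1 TPM, and Gstt3 had 5.15 and 5.77 TPM. Gstt4, which lies between Gstt1 and Gstt2, had no reads, which allows up to 0.112 and 0.121 TPM at a floor of 3 reads. The cluster thus held 3 detected genes and 1 without reads in both pools.

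In the alpha class, Gsta4, which conjugates the lipid peroxidation product 4-hydroxynonenal, led with 19.7 and 17.8 TPM. Gsta3, the mouse enzyme known for conjugating the activated form of aflatoxin B1, had 4.68 and 4.84 TPM. The level of Gsta4 was 3.94 ± 0.376 times that of Gsta3. Gsta1 and Gsta2, inducible enzymes of the adult liver, had at most 3 reads in a library. Gsta2 had 3 and 1 reads, and Gsta1 had 0.05 TPM in replicate 1 and none in replicate 2. Gsta1 shared 64.7% of its windows with Gm3776, a gene outside the set, and 24.3% with Gsta2, and 19.4% are found in no other gene, so even these few reads are uncertain in their origin.

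Other soluble GST genes were led by Gsto1 (ENSMUSG00000025068.7, chromosome 19, 47854970 to 47864790), an omega-class enzyme that reduces dehydroascorbate and methylated arsenic. It had 99.6 and 96.7 TPM. Its neighbour Gsto2 had 0.23 and 0.19 TPM from 9 and 7 reads, so that Gsto1 was 471 ± 53.6 times higher in level. Gstk1, a kappa-class enzyme of mitochondria and peroxisomes, had 7.19 and 6.32 TPM.

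All 3 Mgst genes, which encode membrane-bound enzymes of the MAPEG family, were detected. Mgst3 (ENSMUSG00000026688.5, chromosome 1, 167371966 to 167393841, minus strand) had 345 and 337 TPM, the second level of the whole set, from 10834 and 9795 reads. Mgst1, an enzyme of the endoplasmic reticulum and the outer mitochondrial membrane, had 49.2 and 45.7 TPM. Mgst2, which can make leukotriene C4, had 14.3 and 12.7 TPM. Mgst3 was 7.20 ± 0.257 times as high as Mgst1 and 25.3 ± 1.67 times as high as Mgst2. The reads of all 3 genes had a posterior standard deviation of 0, and all of their windows were unique to them.

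**Figure D2:**
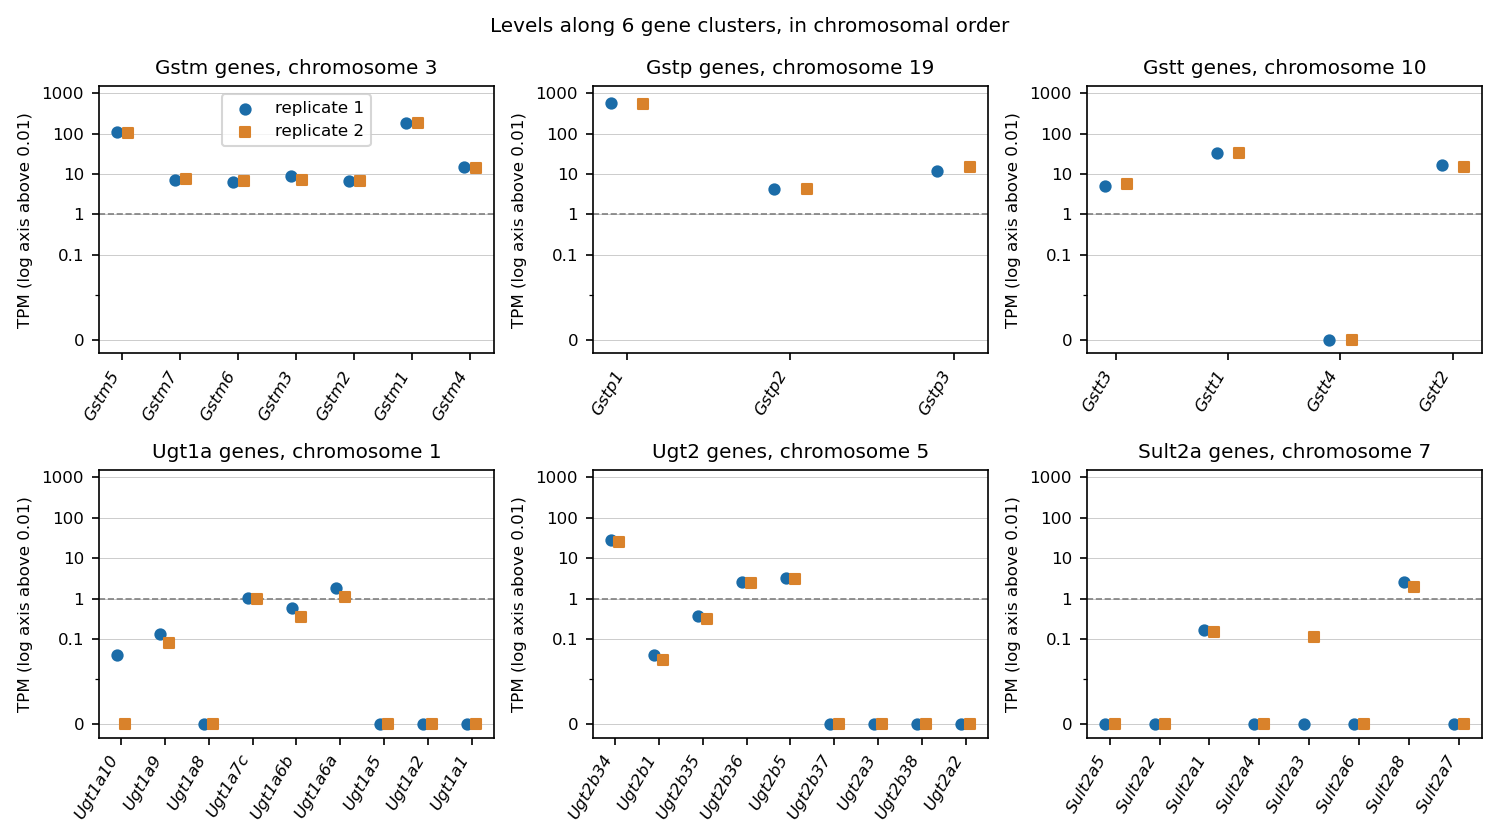
TPM of the genes of 6 clusters in chromosomal order, on an axis that is logarithmic above 0.01 and linear below it. Circles are replicate 1, squares are replicate 2, and the dashed line is 1 TPM. Gstp1 (576 and 533 TPM), Ugt2b34 (27.9 and 25.5 TPM) and Sult2a8 (2.53 and 1.92 TPM) stand above the other genes of their clusters.

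Among UGT genes, Ugt2b34 held most of the RNA. Ugt2b34 (ENSMUSG00000029260.11, chromosome 5, 86889767 to 86906937, minus strand) was at 27.9 TPM (replicate 1) and 25.5 TPM (replicate 2), from 2607 and 2202 expected counts. Ugt2b5 had 3.27 and 3.06 TPM and Ugt2b36 had 2.61 and 2.50 TPM. Ugt2b34 was 8.44 ± 0.138 times as high as Ugt2b5 and 10.5 ± 0.343 times as high as Ugt2b36. Ugt2b35 (0.38 and 0.31 TPM) and Ugt2b1 (0.04 and 0.03 TPM) had reads but were not detected. The other 4 analysed genes of the 592-kb cluster, Ugt2b37, Ugt2a3, Ugt2b38 and Ugt2a2, had no reads. Ugt2b38 is 97.0% identical to Ugt2b5 in coding sequence and 75.8% of its windows are unique, and Ugt2b5 had a posterior standard deviation of 0.436% and 0.452% of its count.

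The Ugt1a genes are variants of 1 locus. In the model described here for each of the 9 genes, a first exon of its own is followed by 4 later exons. Ugt1a6a and Ugt1a6b also have models that start upstream. The genes begin at 88134809 and 88103252, the described first exons at 88138378 and 88106862. The described model of Ugt1a6a held 7.69% and 61.3% of that gene's TPM, and Ugt1a6a-202 held 87.4% and 31.5%. The second exon is the same in all 9 gene models, and the last exon begins at the same base in each and ends further downstream in that of Ugt1a7c (1876 bases long, against 871 to 878 in the others). Reads on the later exons therefore fit several genes, and a read across the junction between the first and second exon tells them apart only by the first exon's sequence. The second exon lies at chromosome 1, 88215044 to 88215175 (mm10, plus strand). The 24 bases on each side of this junction are shown for the genes that had reads and for Ugt1a1, with the shared second exon in capitals:
Ugt1a10: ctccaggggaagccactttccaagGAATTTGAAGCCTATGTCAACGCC
Ugt1a9: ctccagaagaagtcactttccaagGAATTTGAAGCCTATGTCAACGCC
Ugt1a7c: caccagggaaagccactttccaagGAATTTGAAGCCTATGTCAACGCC
Ugt1a6b: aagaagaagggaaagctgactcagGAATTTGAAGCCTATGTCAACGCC
Ugt1a6a: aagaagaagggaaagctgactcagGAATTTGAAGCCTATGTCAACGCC
Ugt1a1: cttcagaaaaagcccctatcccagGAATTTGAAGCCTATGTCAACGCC
The junction stretches of Ugt1a6a and Ugt1a6b are identical, and their coding sequences are 98.4% identical. Ugt1a6a, an enzyme for planar phenols, was the only one detected, with 1.82 and 1.12 TPM from 129 and 73.6 expected counts. Ugt1a7c had 1.06 and 0.96 TPM and Ugt1a6b had 0.58 and 0.36 TPM. Ugt1a9 had 0.13 and 0.08 TPM, and Ugt1a10 had 0.04 TPM in replicate 1 and no reads in replicate 2. Posterior standard deviations were 8.80% and 11.4% of the count for Ugt1a6a, 19.7% and 25.5% for Ugt1a6b, and 45.7% and 50.6% for Ugt1a9. No read was assigned to Ugt1a1, the enzyme that conjugates bilirubin, nor to Ugt1a2, Ugt1a5 or Ugt1a8. For Ugt1a1 the floor of 3 reads is 0.0449 and 0.0485 TPM, but 22.6% of its windows are unique, so a read on a later exon could have been assigned elsewhere. Over the 9 genes, the expected counts summed to 270 and 189 and the TPM to 3.63 and 2.52. The TPM sum still depends on the division of reads, since the gene lengths differ.

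Ugt3a1 (0.24 and 0.35 TPM) and Ugt3a2 (0.10 and 0.06 TPM) were below 1 TPM, as was Ugt8a (0.03 and 0.02 TPM), which encodes the enzyme that makes galactosylceramide for myelin.

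**Figure D3:**
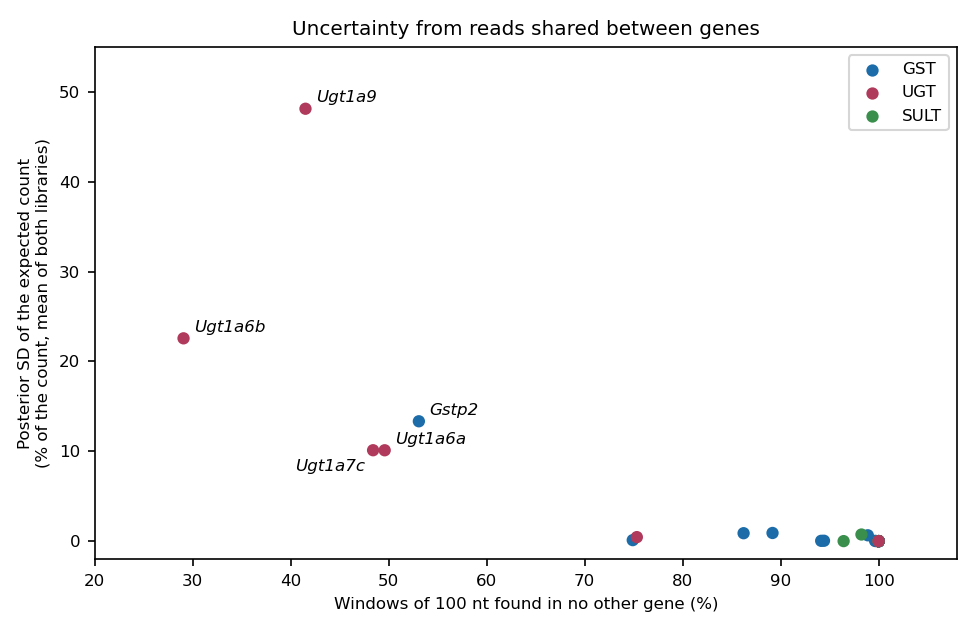
Posterior standard deviation of the expected count, as a percent of the count and averaged over both libraries, against the percent of 100-base windows found in no other gene, for genes whose expected counts averaged 5 or more. Colours are families. The labelled genes lie above 5%, and Gstp2 and Ugt1a6a are the detected genes among them.

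Over the 66 genes, all windows of the GENCODE M21 models were unique for 35. Of the 26 detected genes, 15 had a posterior standard deviation of 0 in both libraries, and it exceeded 5% of the count in both for Gstp2 and Ugt1a6a. The leading genes are thus little touched by shared reads, whereas the low genes of the Ugt1a locus and Gstp2 are. Of 130 pairs of genes within a subfamily, 19 were over 90% identical in coding sequence.

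Sulfotransferase RNA was sparse. Sult2a8 (ENSMUSG00000030378.10, chromosome 7, 14410686 to 14446769, minus strand), a bile acid sulfotransferase of adult mouse liver, had 2.53 and 1.92 TPM from 159 and 112 reads. Sult5a1 had 1.45 and 1.66 TPM from 41 and 38 reads. Ugt2b34 was 12.2 ± 1.60 times as high in level as Sult2a8. Below 1 TPM, Sult1d1 had 0.91 and 0.77 TPM, Sult2b1, which sulfates cholesterol, had 0.69 and 0.56 TPM, and Sult1b1, which sulfates thyroid hormones, had 0.56 and 0.41 TPM. Sult1a1, the phenol sulfotransferase, had 0.44 and 0.20 TPM from 17 and 7 reads, and it overlaps Sgf29 on the opposite strand, which had 37.9 and 31.6 TPM. Sult2a1, which acts on bile acids and steroids, had 0.17 and 0.15 TPM, and Sult4a1, known from brain, had 0.15 and 0.12 TPM. Sult1e1, the estrogen sulfotransferase, had 0.03 TPM in replicate 1 and no reads in replicate 2, and Sult1c2 and Sult3a1 had none. Of the 8 Sult2a genes on chromosome 7, 5 had no reads in either library.

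All 26 detected genes had a coding transcript model as the leading one, and of the 18 with more than 1 annotated model, 9 had a single model above 90% of the TPM in both libraries. Gstm5 was divided between a coding model of 945 bases (61.4% and 57.6%) and a coding model of 810 bases (38.4% and 40.9%). Mgst1 was led by a model of 742 bases with 57.6% and 53.1%. The models of Gstp3 differed more between the pools, with the model of 685 bases holding 77.8% in replicate 1 and 56.1% in replicate 2, but its posterior standard deviation was 33.4 counts of 172 in replicate 1 and 41.3 counts of 142 in replicate 2. For Ugt1a6a, the model of 2297 bases held 87.4% in replicate 1 and 31.5% in replicate 2, but its posterior standard deviation was 29.7 counts of 110 in replicate 1, so the divisions of both genes are uncertain.

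Between the 2 pools, the genes with enough counts to compare mostly differed by less than 1.5-fold. Of the 66 genes, 27 averaged 50 or more expected counts. Their median log2 ratio, replicate 1 over replicate 2 after adding 0.1 TPM to both, was 0.06 (range -0.30 to 0.65). The median over all genes that passed the same filter was 0.0063. The ratio was above 0 for 20 of the 27 genes and below 0 for 6, and it was above 0 for 52.1% of all genes. With the summed spike-ins held equal, the ratios of all genes, in the set or not, shift upward by 0.12. Of the 27 genes 24 then lie above 0. The share of all genes above 0 after this shift was not computed, so the count marks no trait of the set. Of the 27 genes, 17 (63.0%) were within 1.1-fold, against 67.8% of all 13017 genes that passed the same filter.

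A ratio of at least 1.5-fold higher in replicate 1 occurred in 1 of the 27 genes, Ugt1a6a, against 0.768% of all genes, and none was lower by this size, against 1.27% (2.04% in either direction). Ugt1a6a was 1.62-fold higher (1.21 to 2.19, exact 95% Clopper-Pearson interval of the count ratio, counting error only), and the summed Ugt1a locus was 1.44-fold higher (1.19 to 1.75). At a minimum of 10 counts, 2 of 34 genes passed, against 6.42% of all genes. Of the 27 genes, the interval lay wholly above 1 for 5 and wholly below 1 for 1, against 16.3% and 14.6% of all genes. The 5 were Gstp1 (1.08-fold, 1.05 to 1.11), Ugt2b34 (1.09-fold, 1.03 to 1.16), Gstm3 (1.26-fold, 1.07 to 1.497), Sult2a8 (1.32-fold, 1.03 to 1.69) and Ugt1a6a, and the 1 was Gstp3 at 0.810 (0.674 to 0.973). For the rest of the 27 genes the interval included 1. Some of these intervals were wide, such as 0.738 to 1.37 for Gstp2, so they do not show equal levels. Summed marker TPM differed between the pools as well, with 973 and 861 for megakaryocytes, 466 and 519 for granulocytes and 10645 and 10364 for hepatoblasts, and their part in these ratios was not tested.

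**Figure D4:**
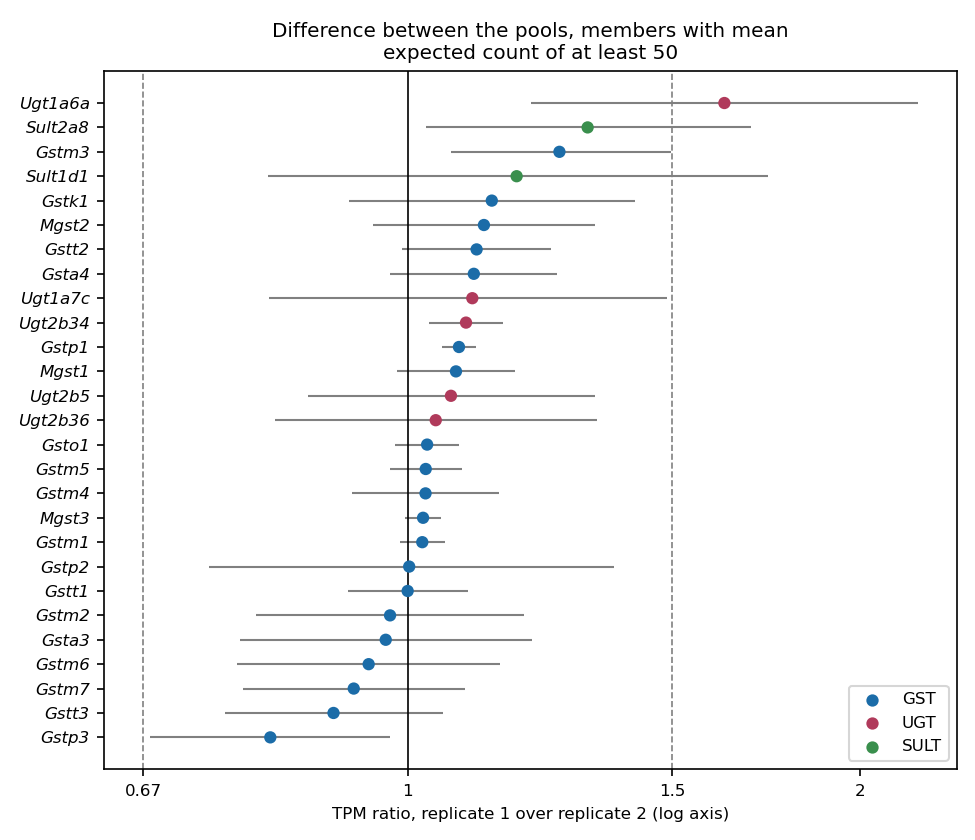
Ratio of TPM, replicate 1 over replicate 2, on a log axis for the 27 genes that averaged 50 or more expected counts. Bars are exact 95% intervals for counting error only, and the dashed lines are 1.5-fold in either direction. Ugt1a6a at 1.62-fold is the gene beyond a dashed line.

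Genes of cofactor supply and turnover were nearly all detected, beside 4 of 21 UGT and 2 of 21 SULT genes. For glutathione, 7 of 9 genes were detected, and the median level was 38.3 TPM. The 9 include Chac1, Chac2, Ggct and Ggt1, which act in glutathione breakdown and not in its supply. Gclm, the modifier subunit of the rate-limiting ligase, had 361 and 366 TPM, its catalytic partner Gclc had 38.3 and 38.3 TPM, and Gss, which completes glutathione, had 55.8 and 55.5 TPM. Gsr, which regenerates it from its oxidized form, had 75.1 and 76.7 TPM, while the cystine transporter gene Slc7a11 had 0.17 and 0.31 TPM. For UDP-glucuronic acid all 4 genes were detected, with 32.9 and 27.5 TPM for Ugp2 and 22.2 and 24.6 TPM for Ugdh, the dehydrogenase that makes it. For PAPS all 6 genes were detected, with 13.0 and 12.4 TPM for the synthase gene Papss1 and 1.58 and 2.43 TPM for Papss2. The 6 include Bpnt1, which breaks down the product left from PAPS.

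Among 15 regulators of such genes, 14 were detected, where 54.5% of all protein-coding genes were. Nfe2l2, which encodes the oxidant-responsive factor NRF2, had 46.2 and 45.0 TPM, and Keap1, its inhibitor, had 36.1 and 34.3 TPM. The dioxin receptor gene Ahr had 3.15 and 2.66 TPM and the pregnane X receptor gene Nr1i2 had 1.61 and 1.19 TPM. Nr1i3, the constitutive androstane receptor gene, was the undetected one at 0.31 and 0.20 TPM. Of 10 genes listed for conjugate transport 8 were detected, led by Abcg2 at 176 and 170 TPM. The 8 include Rdx (70.9 and 73.0 TPM), which does not encode a transporter. Abcc2, the canalicular conjugate pump, had 7.68 and 7.10 TPM. The undetected ones, Slco2b1 (0.39 and 0.25 TPM) and Slco1b2 (0.08 and 0.02 TPM), encode uptake carriers and not exporters. Of 6 deconjugation genes listed, Sts was not matched, so its level is not known here. The 5 matched ones were detected, with 41.8 and 37.8 TPM for the beta-glucuronidase gene Gusb.

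Of 13 other conjugating enzymes 6 were detected, including the arsenic methyltransferase gene As3mt (16.9 and 15.5 TPM). Among 17 genes of related families 11 were detected, with 36.0 and 32.4 TPM for the zeta-class Gstz1. Of 17 phase I oxidation genes 8 were detected, and the median level was 1.02 TPM. Por, the electron donor of the P450 enzymes, had 30.1 and 31.6 TPM and the quinone reductase gene Nqo1 had 14.4 and 14.9 TPM. The adult liver P450 gene Cyp1a2 had 0.02 TPM in replicate 1 and no reads in replicate 2, and Cyp2c29 had no reads. By the same rule 54.5% of all protein-coding genes were detected. The shares of the other conjugating, related and phase I lists lie nearer to it than those of the cofactor, regulator and transport lists. The lists are described by counts and levels and were given no test.

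**Figure D5:**
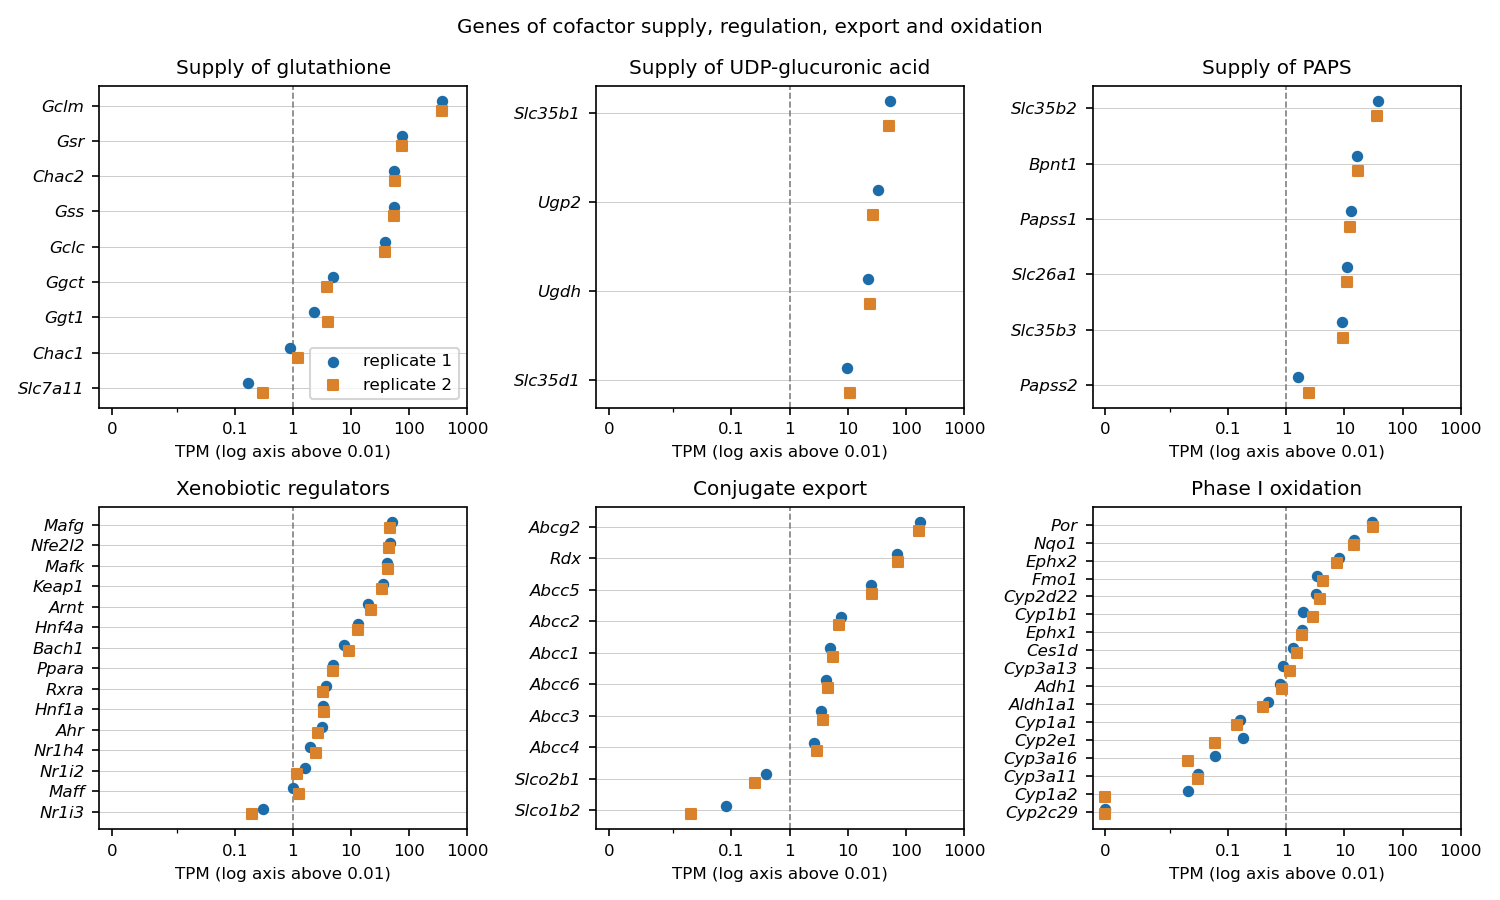
TPM of the genes of 6 lists, on an axis that is logarithmic above 0.01 and linear below it. Circles are replicate 1, squares are replicate 2, and the dashed line is 1 TPM. All genes of the UDP-glucuronic acid and PAPS lists lie right of the line, while 8 of the 17 phase I genes do so in both libraries.

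Promoter windows were available for 58 of the 66 genes (69 windows, some genes having several starts) and for 24 of the 26 detected genes (32 windows). The median number of CpG dinucleotides was 5 in windows of detected genes and 2 in those of genes not detected, against 7 in all 32851 windows. By family it was 8 for GST, 2 for UGT and 1.5 for SULT genes. In the 7 windows of detected UGT and SULT genes it was 1, so the higher median of detected genes does not hold outside GST. Motifs were searched on both strands, and a window may hold several. TGACNNNGC, the antioxidant response element core, was found in 5.80% of the 69 windows, against 12.4% of all windows, and all 4 windows belonged to detected genes (12.5% of theirs). GCGTG was found in 21.7% of the 69 windows, against 32.4% of all. CAAAGT was found in 21.7%, against 14.4%, GTTAAT, a motif of the hepatocyte factor HNF1, in 20.3%, against 7.10%, TATAAA in 21.7%, against 13.6%, and the GATA site AGATAA in 17.4%, against 11.2%. In windows of detected genes, GTTAAT was found in 6.25% and CAAAGT in 31.2%. These shares describe the windows and no test was made on them.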

How the data were processed

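Total RNA of embryonic day 12.5 mouse liver was measured in 2 libraries of 1 group. The authors deposited, for each library, a table of genes and a table of transcripts on mm10 with GENCODE M4, per the text headers of the files. Which aligner and quantifier were used is not given in the sources used here. Expected counts, as deposited, are estimated reads that need not be whole and are not normalized. The deposited TPM values are length-scaled levels that sum to a fixed total with spike-ins included, while the FPKM values, also as deposited, are reads per kilobase of effective length and per unit of depth. The authors also gave the percent of TPM that each transcript holds in its gene, which was recomputed here. The effective length was the length minus 99 in all 66 genes, so windows of 100 bases were used for shared sequence. These windows were cut from GENCODE M21 transcripts, which can differ from the M4 models that were quantified.

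Symbols, gene classes and 1-based coordinates came from GENCODE M21, which has the same assembly, by gene identifier without version. RefSeq proteins were planned for identity between genes, and coding sequences of GENCODE M21 transcripts were used instead. Promoter windows came from RefSeq (GRCm38.p6).

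Depth was 37.6 M and 34.7 M expected counts, and spike-ins took 5.18% and 5.61% of TPM. At an effective length of 1 kb, 3 reads correspond to 0.0953 and 0.103 TPM. Ratios between libraries have exact 95% Clopper-Pearson intervals from rounded counts. Without molecular identifiers, PCR reads are no independent molecules, so intervals and floors cover counting error only. The calculation of these intervals was tested on simulated data. Scaling alternatives used edgeR 4.0.16 and DESeq2 1.42.0 in R 4.3.3 for scaling only, on counts rounded to whole numbers, and other steps used Python 3.11.15. Other thresholds for detection, FPKM, rescaled TPM, summed Ugt1a genes, other pseudocounts and count filters, and each library left out were also tried.

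The genes and lists were chosen with earlier results of these data known. Every detected gene, every gene with a mean count of at least 20 and a list of adult liver enzymes were named with their values.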

Additional observations from a re-analysis of the deposited data

How the results depend on the processing

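No paired analysis was possible because the samples form 1 group. Across 48 alternatives of 8 results, 35 stayed within the tolerance and none reversed. Many of the 35 could not have moved. With 2 libraries, leaving 1 out shifts a mean by less than 1 SD. Family shares cannot change when all levels are rescaled or the Ugt1a genes are summed. The tally is therefore no measure of robustness. The tolerance was 1.5 times for counts of genes, 1 SD between the libraries for levels and shares, and 0.245 for the median log2 ratio, which was 0.18 with spike-ins held equal. With FPKM in place of TPM the genes summed to 1284 and had a median of 0.26. With TPM rescaled over protein-coding genes without globins these were 2508 and 0.503. As shares of expected counts, GST held 92.3%, UGT 6.96% and SULT 0.707%. These follow from the other units. The median TPM ranged from 0.255 to 0.31 with 1 library left out, was 0.415 with the Ugt1a genes summed to 1 locus, and was 1.56 over genes with a read in either library (fewer genes). The number of genes at least 1.5-fold apart between the pools was 0 with a pseudocount of 1 TPM, 2 at a minimum mean count of 10 and 6 with no filter, against 1 as reported. Detected genes numbered 29 at 0.5 TPM and 19 at 5 TPM. Levels near or below 0.1 TPM rest on a few reads and are not resolved at this depth.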
